A study of Mustela putorius furo with 8 samples.

Results

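Cluster 5 of the cystic fibrosis (CF) cells was one of 30 clusters that the deposited cell table gave for ferret pancreatic duct epithelial cultures labelled as knockout for CFTR, the chloride and bicarbonate channel of duct cells. Its members were every retained CF cell to which that table assigned this cluster number, 557 of 11345 CF cells and of 32945 cells in the series. The table placed the cluster in the centroacinar class, and 436 of its cells (78.3%) came from the culture of day 5 at the air-liquid interface. Its listed markers, LTB, NPPC, GZMA, FST and MYL9, were set beforehand with the choice of the cluster and do not stand in that table. At day 5 all 5 genes were between 6.43 and 17.7 times as abundant in the cluster as in the other CF cells of the same library. Since they were chosen as its markers, their higher levels are a description and no support for the cluster.

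Centroacinar cells lie where the terminal duct meets the acinus, and they are known as duct-like cells with progenitor features. Pancreatic ducts collect the digestive enzymes of acinar cells and flush them out with a bicarbonate-rich fluid that depends on CFTR. LTB encodes lymphotoxin beta, a membrane protein of the tumour necrosis factor family that anchors lymphotoxin alpha and signals through the receptor LTBR to non-canonical NF-kB. NPPC encodes the precursor of C-type natriuretic peptide, which acts on nearby cells through the guanylate cyclase receptor NPR2. GZMA encodes granzyme A, a serine protease of cytotoxic lymphocyte granules, FST encodes follistatin, a secreted protein that binds activins, and MYL9 encodes a regulatory light chain of non-muscle and smooth muscle myosin.

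The study followed polarizing wild-type (WT) and CFTR KO/KO cultures by 10x Genomics single-cell RNA sequencing on days 2, 5, 7 and 9 at the air-liquid interface, with 1 library for each genotype and day. The cells were grown out of ducts of newborn ferrets, taken through 10 passages to remove other cells, and seeded on inserts coated with 804G cell matrix, in both genotypes. Cells of 3 donors of each genotype were pooled, and the labels do not tie a cell to a donor. A culture time of 3 weeks at the interface also stands in the labels, beside the day given for each library.

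The 4 CF libraries held 1607 to 4499 retained cells with a median of 17833 to 23427 unique molecular identifiers (UMIs, counted transcripts) per cell. The 4 WT libraries held 4634 to 6224 cells with a median of 14949 to 16862 UMIs. CFTR transcripts were counted in both genotypes, at 2.50, 9.53, 11.5 and 11.4 CPM (UMIs per 1000000 UMIs of the cell set) in the CF cells outside cluster 5 on days 2, 5, 7 and 9 and at 6.57, 16.9, 15.9 and 29.5 CPM in WT. The study describes the knockout animals as free of CFTR mRNA, and these counts go against that description of the libraries labelled CFTR KO/KO. Where in the transcript the counted reads lie was not examined, and CF stands here for the libraries with that label. Any pair of libraries shared 1 to 14 cell barcodes, and 3 cells of the cluster at day 5, 1 at day 7 and 0 at day 9 had a barcode also seen in another CF library. Each group was 1 library, and the genotypes were compared day by day as descriptions, with no test over the 4 days. Cells of 1 library are not replicates, so the intervals printed here are 95% intervals of counting error alone, exact Poisson for counts, Clopper-Pearson for shares and conditional binomial for ratios. The clusters were made from these same genes, so the differences between cluster 5 and other cells are descriptions, and they were not tested over the libraries.

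Set against all other CF cells of day 5, the data went against the centroacinar label in part. Of the study's own centroacinar markers, KRT7, a keratin of simple ductal epithelium, was higher in the cluster (4563 CPM at day 5) than in the other CF cells (2435 CPM), and WSB1 was at 97.1 against 101 CPM. The remaining 3 measured markers were lower. PROM1, a membrane glycoprotein of apical protrusions, was at 0.094 against 11.1 CPM, the calcium-binding protein gene S100A4 at 0.28 against 34.4 CPM, and S100A6 at 13920 against 33150 CPM. The sixth marker, KRT16, was not analysed here. Of the 6 ductal markers of the study 5 were above the other CF cells. The basal keratin gene KRT5 (1380 against 403 CPM) and the actin-capping gene CAPG (588 against 290 CPM) were at least 2-fold higher, against 3.53% of all measured genes. None was 2-fold lower on the log2(CPM + 1) scale, against 5.86% of all genes. KRT15, also one of the 6, was lower in the cluster by less than that. Part of this was shared within the centroacinar class. At day 5 S100A4 was at 19.7 CPM in all other centroacinar cells, but at 0.39 and 0 CPM in the centroacinar clusters 0 and 16. KRT5 was at 824 and 1025 CPM in these and at 207 in the centroacinar cluster 15. In the ductal clusters 12, 26 and 10 KRT5 was at 208, 462 and 929 CPM. The cluster is therefore called here by its number and leading genes, and no other cell type name is given to it.

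The cluster lay mainly in the day 5 library, as did clusters 0 (654 of 741 cells), 12 (329 of 395), 15 (344 of 361) and 25 (169 of 197). With 1 library per day, day and library cannot be told apart. Cluster 5 held 3 of 4499 CF cells at day 2, which is 0.0667% (0.0138 to 0.195), and 436 of 2750 at day 5, which is 15.9% (14.5 to 17.3). At day 7 it held 80 of 1607 cells, 4.98% (3.97 to 6.16), and at day 9 it held 38 of 2489, 1.53% (1.08 to 2.09). Among the 1642 cells of day 5 that the table called centroacinar it made up 26.6%. The depth of its cells was close to that of their library at day 5, with a median of 22651 UMIs against 22794 for all CF cells and a median mitochondrial share of 5.71% against 6.76%. Cells of the cluster had a median of 29771 UMIs at day 7 and 18270 at day 9, where the libraries had 23427 and 19941.

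LTB stood at 103 CPM (96.7 to 109) in the cluster at day 5, at 93.2 (81.6 to 106) at day 7 and at 821 (761 to 885) at day 9. In the other CF cells of those libraries LTB stood at 14.5, 17.9 and 54.8 CPM. The ratio of cluster to other CF cells was 7.06 (6.46 to 7.73) at day 5, 5.20 (4.44 to 6.06) at day 7 and 14.97 (13.7 to 16.3) at day 9. LTB in WT cells did not follow the same course, at 80.8 CPM on day 2, 12.98 on day 5, 83.7 on day 7 and 17.1 on day 9.

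The LTB counts of the cluster were carried by a minority of its cells. At day 5 LTB was counted in 149 of 436 cells (34.2%), the fullest cell held 87 UMIs, and 16 cells with 20 or more UMIs held 49.3% of all LTB UMIs. At day 7, 3 such cells held 37.9%, and at day 9, 7 of 38 cells held 85.1%. Without the 10 cells richest in LTB the level was 66.2 CPM at day 5, 29.1 at day 7 and 99.6 at day 9, so the high value of day 9 rested on few cells. The other 4 markers were spread more evenly at day 5, where the 10 cells richest in each gene held 21.04% of NPPC, 9.74% of GZMA, 13.2% of FST and 10.3% of MYL9 UMIs, against 37.2% for LTB.

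NPPC was low over all WT cells of each day. The cluster had 39.8 CPM (36.1 to 43.8) at day 5, 71.5 (61.4 to 82.8) at day 7 and 50.5 (36.4 to 68.2) at day 9, against 5.79, 16.1 and 11.997 CPM in the other CF cells. WT cells had 0.559, 0.741, 1.24 and 1.66 CPM on days 2, 5, 7 and 9, below the other CF cells in each library pair. The ratio of cluster to other CF cells was 6.88 (5.96 to 7.95) at day 5, 4.43 (3.72 to 5.26) at day 7 and 4.21 (3.00 to 5.76) at day 9. NPPC was thus well above the other CF cells in each of the 3 libraries in which the cluster had more than 3 cells.

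GZMA was the most stable of the 5 over time, at 261 CPM (251 to 271), 237 (219 to 257) and 206 (176 to 239) in the cluster at days 5, 7 and 9, against 40.6, 60.3 and 52.3 CPM in the other CF cells. Its ratio was 6.43 (6.08 to 6.79), 3.94 (3.59 to 4.32) and 3.93 (3.35 to 4.59). WT cells had between 27.5 and 70.4 CPM. FST stood at 359 CPM (348 to 371), 245 (226 to 266) and 371 (331 to 415) in the cluster and at 47.3, 165 and 158 CPM in the other CF cells, so that its ratio was 7.60 (7.24 to 7.98) at day 5, 1.48 (1.36 to 1.61) at day 7 and 2.34 (2.09 to 2.63) at day 9. MYL9 was at 141 CPM (134 to 148), 169 (153 to 186) and 105 (83.8 to 129) in the cluster, and at 7.96, 107 and 111 CPM in the other CF cells. Its ratio of 17.7 (15.96 to 19.6) at day 5 was 1.58 (1.43 to 1.75) at day 7 and 0.943 (0.754 to 1.17) at day 9, an interval that holds 1. The ratios of FST and MYL9, like those of NPPC and GZMA, were thus highest at day 5. On that day the other CF cells held the least of these genes over these 3 days. NPPC and GZMA were still at least 3.93 times as abundant in the cluster on all 3 days. LTB without the 10 richest cells of the cluster was at 29.1 CPM against 17.9 in the other CF cells at day 7 and at 99.6 against 54.8 at day 9.

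**Figure D1:**
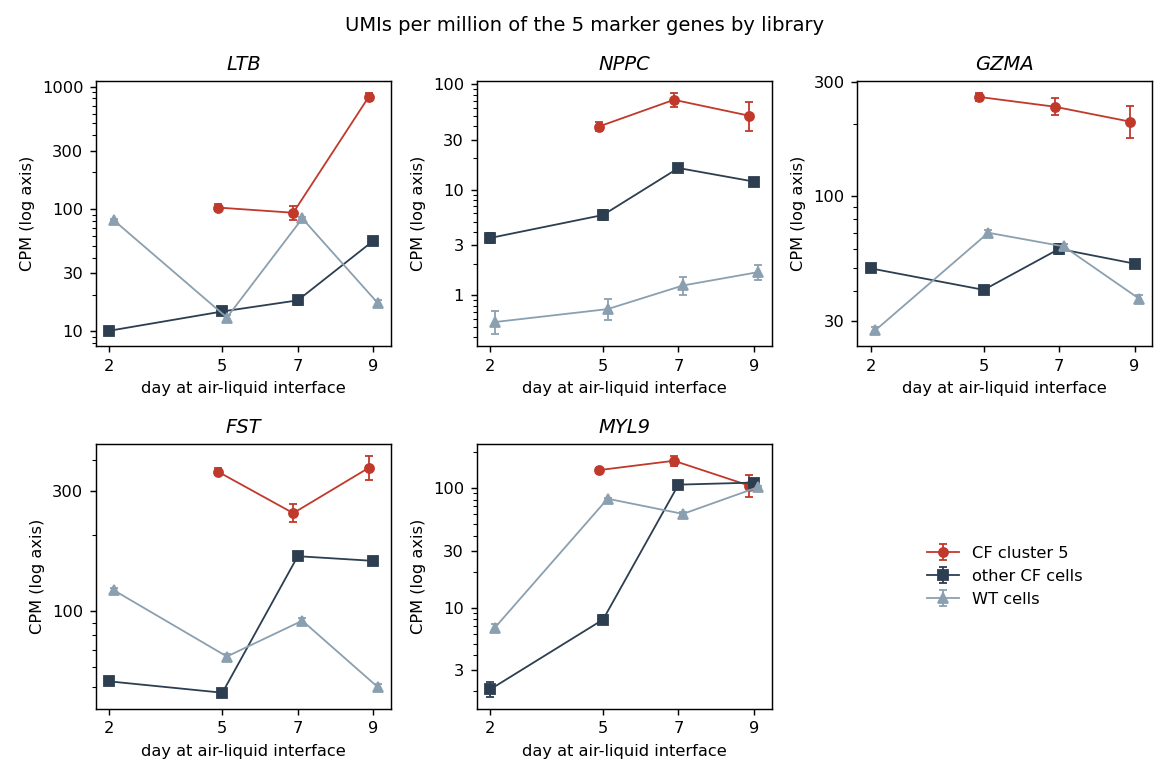
CPM (log axis) of LTB, NPPC, GZMA, FST and MYL9 against the day at the air-liquid interface, in CF cluster 5 (red circles), the other CF cells (dark squares) and WT cells (grey triangles). Each point is 1 library, bars are exact Poisson 95% intervals, and the 3 cluster cells of day 2 are not drawn. NPPC in WT stays between 0.559 and 1.66 CPM while the cluster lies between 39.8 and 71.5 CPM, and MYL9 of the other CF cells meets the cluster at day 9.

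The share of cells with at least 1 UMI was higher in the cluster than in the other CF cells for each of the 5 markers, which were chosen as its markers. At day 5 the shares in the cluster and in the other CF cells were 34.2% against 12.4% for LTB, 44.3% against 10.2% for NPPC, 90.6% against 37.6% for GZMA, 87.6% against 34.7% for FST and 70.9% against 11.7% for MYL9. With each cell thinned to 10000 UMIs they were 25.1% against 6.47%, 26.3% against 5.36%, 79.1% against 24.2%, 76.8% against 23.3% and 56.2% against 5.92%, and the cluster was also higher for each marker at 3000 UMIs. Free RNA in droplets can give a UMI in a cell that does not make the transcript. Among the 9 other CF clusters with at least 50 cells at day 5, the clusters with the lowest levels held a UMI in 9.30% of cells for LTB (cluster 15, median 31279 UMIs), and in 5.51% for GZMA, 3.94% for FST and 2.76% for MYL9 (cluster 17, median 23745). For NPPC it was 0 of 89 cells (cluster 18, median 29219), which allows a share of up to 3.37%. Each share in cluster 5 lay above these lowest shares. The highest shares in the other clusters came closer, with 27.2% for LTB in cluster 25. In cluster 16 they were 48.4% for NPPC, above cluster 5, 79.0% for GZMA, 69.4% for FST and 33.9% for MYL9. The part of free RNA in these shares was not tested.

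The number of markers per cell follows from the share of cells with each single marker and does not measure whether they meet in the same cells. Among 433 cluster cells of day 5 thinned to 10000 UMIs, 55.7% held at least 3 of the 5 markers and the median was 3. The share was 56.4% of 78 cells at day 7. It was 4.11% in the other CF cells and 8.37% in the WT cells of day 5. Only 2.77% of the cluster's cells held none, against 54.8% of the other CF cells.

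Among the 9 other CF clusters with at least 50 cells at day 5, the closest to cluster 5 were both in the same deposited class. Cluster 0 (654 cells) had a Pearson correlation of 0.974 and cluster 16 (62 cells) one of 0.969 with it, over the log2(CPM + 1) values of 9217 genes of 1 library, and the ductal cluster 26 (96 cells) followed at 0.929. These are correlations across genes, which are not independent replicates. LTB set cluster 5 apart from all of them, with 12.3 CPM (10.4 to 14.3) in cluster 0, 8.22 (3.94 to 15.1) in cluster 16 and 13.3 (9.11 to 18.8) in cluster 26 against 103 in cluster 5. NPPC did not, since cluster 16 had 51.8 CPM (39.8 to 66.3) and its interval met that of cluster 5. GZMA in cluster 16 was at 197 CPM (173 to 224), FST at 164 (142 to 188) and MYL9 at 38.7 (28.4 to 51.4), each below cluster 5. At least 3 of the 5 markers were found in 29.0% of thinned cells of cluster 16, in 4.21% of cluster 0 and in 0% of the 96 cells of cluster 26.

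**Figure D2:**
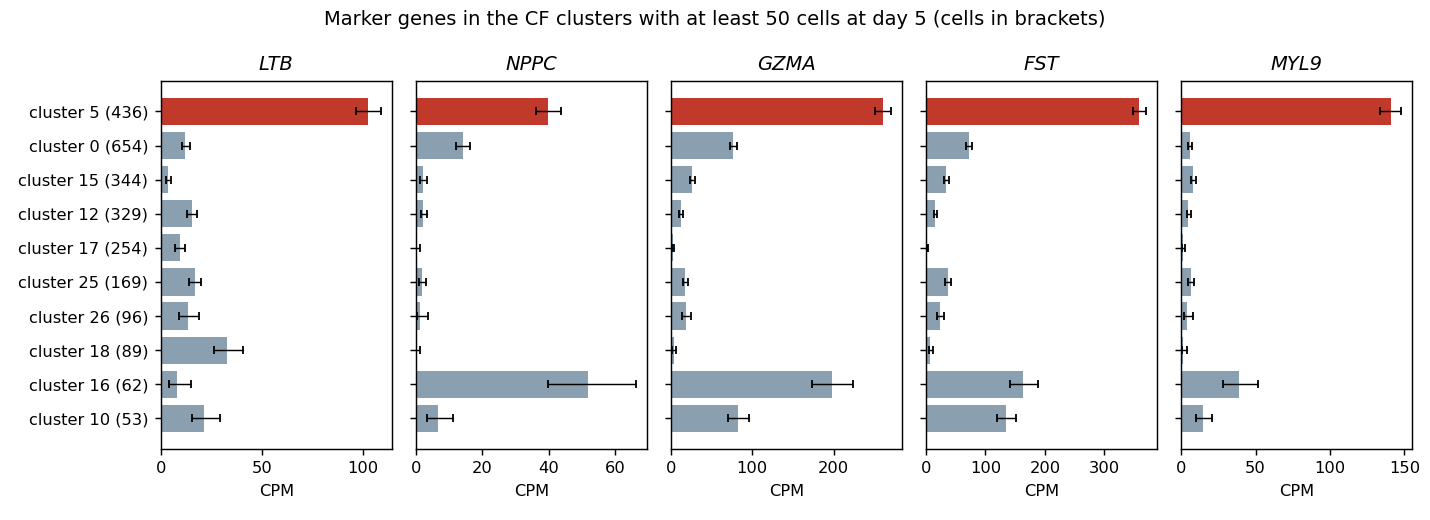
CPM of the 5 markers at day 5 in the 10 CF clusters with at least 50 cells in that library, with exact Poisson 95% intervals as bars. Cluster 5 (red, 436 cells) is above every other cluster for LTB, GZMA, FST and MYL9, while cluster 16 (62 cells) reaches 51.8 CPM of NPPC against 39.8.

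Across all 4 days and the 28 other CF clusters of at least 50 cells, levels were pooled over days, and since the clusters lay on different days their order mixes cluster and day. In that pool cluster 5 had 254 CPM of GZMA and cluster 28, the next, had 180. For LTB it had 144 CPM and cluster 3, the next, had 103, with a median of 12.6, but 7 cells of day 9 held 581 of the 2010 LTB UMIs of cluster 5, and without them it had 104 CPM. Without the 10 cells richest in LTB in each cluster, cluster 5 had 88.0 CPM and the next, cluster 11, had 63.8. It had rank 2 for NPPC (46.8 CPM, after 51.8 in cluster 16), and rank 4 for FST (339 CPM) and MYL9 (143 CPM), which were highest in cluster 11 at 481 and 419 CPM. The highest WT cluster held 547 CPM of LTB and 416 of MYL9, both above cluster 5, and 257 of GZMA and 336 of FST, both close to it. For NPPC the highest WT cluster had 24.3 CPM, from 5 UMIs in 60 cells, and the median WT cluster 0.107 CPM. The genes whose levels followed each marker most closely over the 29 CF clusters differed among the markers. For LTB they were ITGA3, UBE2D1, TINAGL1, BLOC1S2 and BASP1 (r of 0.81 to 0.83), and for NPPC they were DUSP9, PLEKHA1, PXDC1 and TGM2 (0.91 to 0.93). GZMA was followed by S100A2, KRT5, GUCY1A2, LOC101679740 and MNDA (0.92 to 0.94), FST by PDPN, CDH6, TFPI and SFRP1 (0.94 to 0.95), and MYL9 by TAGLN, SRGN, CBX1, SPARC and CALD1 (0.93 to 0.97). The clusters share libraries and a base of common genes, and these correlations describe their levels only.

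Over all genes of day 5, 325 of the 9217 genes with at least 5 CPM in the library were at least 2-fold higher in cluster 5 than in the other CF cells (3.53%), and 540 were at least 2-fold lower (5.86%), on the log2(CPM + 1) scale. The median difference of all genes was 0.03. Against the other centroacinar cells alone, 174 of 9215 were higher (1.89%) and 311 were lower (3.37%). In both comparisons more genes were lower in the cluster than higher.

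Among genes with at least 20 CPM in either set and no LOC symbol, the gene furthest up was TAGLN, which encodes the actin-binding protein transgelin. It was at 143 CPM in the cluster and 7.72 in the other CF cells of day 5, a ratio of 18.5 (16.7 to 20.6), although only 27.3% of the cluster's cells held a UMI of it. CALD1, the actin-binding caldesmon gene, was at 103 against 9.83 CPM, and SPARC, a secreted collagen-binding glycoprotein, at 401 against 42.2 CPM. VIM, the intermediate filament gene of mesenchymal cells, was at 106 against 23.5 CPM, and SRGN, the proteoglycan of secretory granules, at 37.0 against 4.47 CPM. The parathyroid hormone-related gene PTHLH was at 276 against 50.1 CPM, the growth factor gene PDGFB at 50.3 against 6.76, the guidance ligand gene SEMA3E at 107 against 20.0 and the Wnt ligand gene WNT5B at 61.1 against 12.6. SFRP1, a secreted Wnt antagonist, was at 343 against 67.2 CPM, the chaperone gene CLU at 3743 against 715, and osteopontin (SPP1) at 153 against 22.4. The desaturase-family gene FADS3 (168 against 16.9 CPM), the cadherin gene CDH6 (232 against 37.7) and the YAP target ANKRD1 (27.0 against 3.50) were also in this set, as were PALMD, CMTM7, the aggrecanase gene ADAMTS5 and the prolyl hydroxylase gene P3H2 at 22.2 to 48.8 CPM in the cluster and 3.47 to 7.66 CPM outside it. Some of these genes were as high in cluster 16, one of the 2 closest clusters. Of the 25 genes furthest up, 25 were at least 2-fold higher in cluster 5 than in cluster 0 but 8 were so against cluster 16, and 7 were at or below its level. Among the 7, VIM was at 153 CPM in cluster 16, SPARC at 456, SPP1 at 186, SRGN at 42.8 and ADAMTS5 at 52.6.

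Of the 15 genes furthest in the other direction, MAL, which encodes a raft protein of apical transport, was at 3.95 CPM in the cluster and 229 in the other CF cells, the mucosal chemokine gene CXCL17 at 9.13 against 421 and the gel-forming mucin gene MUC5AC at 1.51 against 86.9. SCNN1A, the alpha subunit of the epithelial sodium channel, was at 2.35 against 114 CPM, and the uroplakin gene UPK1A at 7.90 against 235. The ectoenzyme gene ENPP3, lactoferrin (LTF), the trefoil factor gene TFF2, S100A4, the trypsin inhibitor gene SPINK1, FAM3B, the transmembrane mucin gene MUC4, the carboxylesterase gene CES1 and the elastase inhibitor gene PI3 were each at 0.19 to 1.60 CPM in the cluster and at 32.7 to 74.3 CPM outside it. PSCA, a surface glycoprotein gene, completed the set at 8.37 against 237 CPM. Cluster 0 and cluster 16 were also low in these genes, with MUC5AC at 1.71 and 1.64 CPM and SCNN1A at 6.91 and 1.64 CPM. The low levels were thus shared with clusters 0 and 16. In cluster 26 PSCA was at 202 CPM, CXCL17 at 106, MAL at 105 and CES1 at 84.9, while MUC5AC was at 4.58 and ENPP3 at 2.50.

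**Figure D3:**
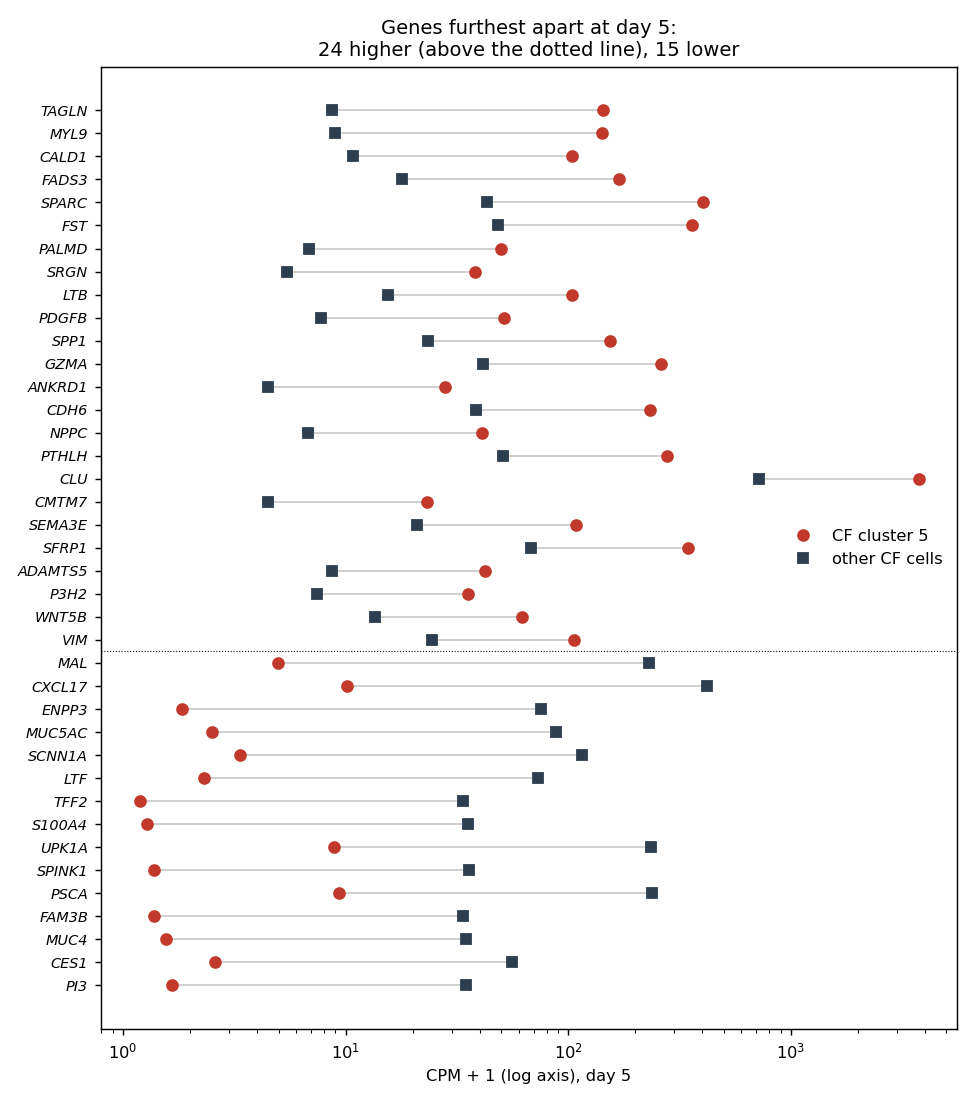
CPM + 1 (log axis) at day 5 in CF cluster 5 (red circles) and in the other CF cells (dark squares) for 24 of the 25 genes furthest up and the 15 furthest down among genes with at least 20 CPM in either set and no LOC symbol. TAGLN, at 143 against 7.72 CPM, has the widest gap of the upper set and MAL, at 3.95 against 229 CPM, that of the lower set.

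The listed markers MYL9, FST, LTB and NPPC also count in the gene lists that follow. Some genes, such as TAGLN, CCN2 and SMAD7, stand in more than 1 list. The list counts are therefore not independent of the markers or of each other. Of 14 measured contractile genes, 9 were at least 2-fold higher in the cluster at day 5, against 3.53% of all genes, and 0 were 2-fold lower, with a median difference of 1.39 against 0.03 for all genes. Besides TAGLN, MYL9 and CALD1 they included the tropomyosin gene TPM1 (542 against 156 CPM), the filamin gene FLNA (119 against 30.1), the alpha-actinin gene ACTN1 (579 against 212), the calponin genes CNN2 (86.0 against 33.5) and CNN3 (235 against 103) and the myosin light chain kinase gene MYLK (14.96 against 3.67). MYLK passed the expression minimum only through the cluster, and with the minimum set on the other CF cells alone, chosen after seeing the data, 8 of 13 were higher, against 3.21% of all genes, and the median was 1.33. SRF (19.3 against 19.3) and the vinculin gene VCL (177 against 167) stood apart from them. Targets of the mechanosensitive YAP/TEAD factors had 6 of 11 genes 2-fold higher and 0 lower, with a median of 1.03 (5 of 10 and 0.96 with the minimum set outside the cluster, which leaves out ANKRD1), among them CCN1 (511 against 202 CPM), CCN2 (1642 against 793) and tissue factor, F3 (796 against 275), while LATS2 (20.7 against 21.4) and AMOTL2 (52.8 against 48.3) were near equal.

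FST was not alone among the transforming growth factor beta (TGF-beta) and activin genes. Of 8 TGF-beta target genes 6 were 2-fold higher, against 3.53% of all genes, and 1 was lower, against 5.86%, with a median of 1.15, the exception being TGFBI (6.96 against 18.5 CPM), and the inhibitor genes PMEPA1 (868 against 304) and SMAD7 (131 against 61.4) were among the 6. Of the 4 secreted antagonists and binding proteins, FST and FSTL3 (62.7 against 14.8 CPM), which both bind activins, were 2-fold higher, and LTBP1 (30.9 against 32.7) and LTBP3 (24.2 against 21.6) were close to equal. Ligands and receptors had a median of 0.00, with TGFB1 as the 1 of 6 past 2-fold (108 against 47.0 CPM). Of 7 genes of the bone morphogenetic protein pathway SMAD7 alone passed 2-fold, with a median of 0.28.

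The receptors and relays of lymphotoxin did not follow LTB. The receptor gene LTBR was at 25.2 CPM in the cluster and 25.3 outside it, and the non-canonical NF-kB genes NFKB2 and RELB were at 32.8 against 22.8 and 29.4 against 19.7 CPM. Of the 10 genes measured LTB alone was 2-fold higher, against 3.53% of all genes. TNFRSF1B alone was 2-fold lower (4.89 against 11.2 CPM), against 5.86% of all genes, and the median was 0.25. None of 6 NF-kB target genes passed 2-fold in either direction, a count near the shares of all genes, with a median of 0.22. In the natriuretic peptide pathway NPPC and FURIN, a protease that cleaves proproteins, were the 2 genes above the expression minimum, and FURIN was at 63.1 against 39.8 CPM. The clearance receptor gene NPR3 fell under that minimum, at 5.08 against 2.04 CPM, and 5 of the 12 genes of the pathway list had 0 UMIs in the cluster.

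Of 12 measured basal keratin and hemidesmosome genes 6 were 2-fold higher and 0 were 2-fold lower, with a median of 0.86. Over all genes 3.53% were higher and 5.86% lower, which holds also for the list counts that follow. The 6 were KRT5, the integrin gene ITGB4 (1012 against 334 CPM), the laminin gene LAMA3 (143 against 55.3), the hemidesmosomal collagen gene COL17A1 (408 against 167), the plakin gene DST (1389 against 477) and the basal cell transcription factor gene TP63 (149 against 72.0). KRT15, another keratin of basal cells and one of the study's ductal markers, was at 5.36 against 10.9 CPM. Notch ligands were higher, with JAG1 at 207 against 67.5 CPM and JAG2 at 65.6 against 30.1, as was the Notch-modifying glycosyltransferase gene LFNG (85.2 against 37.8), whereas the receptor gene NOTCH2 was lower (19.9 against 61.6) and HES1, a Notch target, was at 1022 against 827 CPM. Of 8 Notch genes 3 were 2-fold higher and 1 was lower. Mesenchymal genes had 5 of 7 higher and 1 lower, a median of 1.54 (4 of 6 and 1.31 without FN1, which fell under the minimum outside the cluster), with SNAI2, a repressor of epithelial genes, at 96.4 against 32.6 CPM, ITGB1 at 843 against 399 and S100A4 as the lower one. Of this list, VIM and SPARC did not part cluster 5 from cluster 16, where they were at 153 and 456 CPM at day 5, and S100A4 was at 0 CPM there. Of 11 junction genes 0 were 2-fold higher, the tight junction gene OCLN was 2-fold lower (20.2 against 89.7 CPM), and the E-cadherin gene CDH1 was at 286 against 512 CPM. Of the 9 measured genes of the Wnt list, which did not hold WNT5B, SFRP1 was 2-fold higher, and the Wnt target AXIN2 (0.19 against 8.76) and WNT5A (5.08 against 32.4) were 2-fold lower. Among 9 proteases and inhibitors 4 were 2-fold higher, including the collagenase gene MMP13 (168 against 78.2 CPM) and the inhibitor gene TIMP1 (331 against 142), and MMP7 was lower (29.6 against 316).

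Secretory and mucin genes were lower as a group. Of 8 secretory genes 7 were at least 2-fold lower, against 5.86% of all genes, with a median of -3.77. The exception was AGR2, a chaperone of mucin folding, at 63.9 against 34.7 CPM. Of 11 genes that the study used for centroacinar progenitors 9 were 2-fold lower, with a median of -3.12, among them the transmembrane mucin genes MUC1 (40.8 against 808 CPM) and MUC16 (15.5 against 143). Of 8 duct transport genes 4 were lower, namely CFTR (3.86 against 9.53 CPM), the calcium-activated chloride channel gene ANO1 (43.0 against 88.9), SCNN1A and the sodium pump subunit gene ATP1B1 (205 against 703). For CFTR this rested on the cells compared, since it stood at 5.35 CPM in the other centroacinar cells, 3.11 in cluster 0 and 1.64 in cluster 16, within 2-fold of the cluster or below it. Of 8 interferon genes 4 were lower, with MX2, an antiviral GTPase gene, at 1.79 against 53.1 CPM. The pancreatic progenitor factor PDX1 was at 3.67 CPM (2.61 to 5.02) against 4.88 (4.34 to 5.47) in the other CF cells and 3.50 in the other centroacinar cells, with a ratio to the other CF cells of 0.752 (0.524 to 1.05) at day 5 and 1.64 (0.596 to 3.63) at day 9. In WT, 0 UMIs were counted in 5326 WT cells of day 5, which allows up to 0.0563% of cells to hold one. SOX9, a transcription factor of duct cells, was at 2.26 against 6.41 CPM. Of 8 cell cycle genes 6 were 2-fold lower than in the other CF cells, with MKI67 at 0.56 against 7.02 CPM and TOP2A at 1.13 against 16.3, but against the other centroacinar cells the median of the list was 0.10, so the direction of this list depended on the cells compared.

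In several lists few genes passed 2-fold. Of 12 early response genes such as FOS (379 against 435 CPM) and JUN (720 against 548), 0 passed 2-fold in either direction, with a median of 0.085. The 7 acinar markers of the study (median 0.19) and the 4 simple keratins (median 0.77) also held 0 genes past 2-fold. Of 7 stress genes 1, SQSTM1, was 2-fold lower (81.2 against 185 CPM). Of 10 genes of glycolysis and hypoxia the vascular growth factor gene VEGFA (226 against 81.7) and the glucose transporter gene SLC2A1 (112 against 54.4) were 2-fold higher, with a median of 0.36. Of 4 squamous genes the cell cycle checkpoint protein gene SFN was 2-fold higher (805 against 319 CPM) and KRT4 was lower (7.996 against 22.3).

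**Figure D4:**
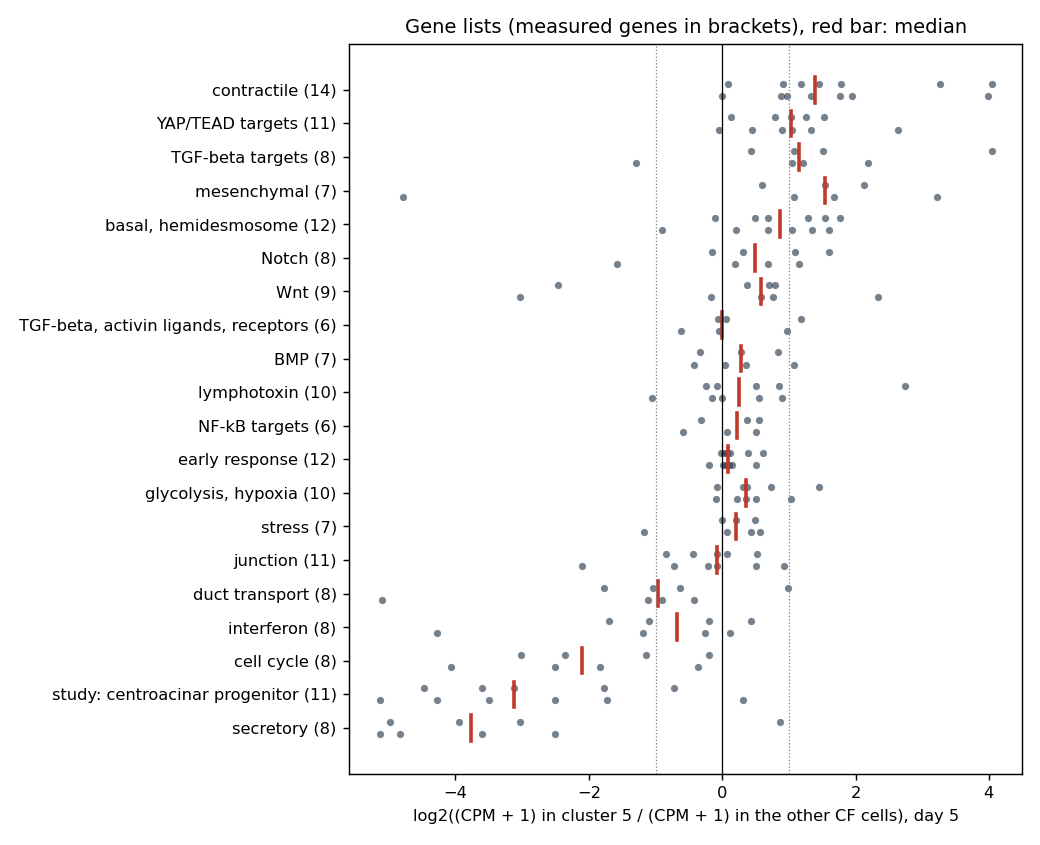
Difference in log2(CPM + 1) between CF cluster 5 and the other CF cells at day 5 for the measured genes of 20 gene lists (points), with the list median as a red bar and dotted lines at 2-fold. Contractile, YAP/TEAD, TGF-beta target and mesenchymal lists have medians above 1, and the secretory list, at -3.77, lies furthest to the left.

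Markers of other cell types were examined because LTB, GZMA and SRGN are best known from lymphocytes. Of 20 lymphocyte markers 17 were in the count matrix and 0 reached the minimum of 5 CPM over all CF cells of the day 5 library, and their summed level in the cluster was 4.81 to 17.9 CPM over days 5, 7 and 9, against 4.21 to 21.6 CPM in the other CF cells. At day 5 the sum was 17.9 CPM in the cluster and 4.21 CPM outside it, and CD69, an activation antigen of lymphocytes that was singled out after its values were seen, made up most of it at 14.8 against 1.08 CPM. CD69 was counted in 8.94% of the cluster's cells of day 5 and in 1.73% of the other CF cells, and its part in the marker levels was not tested. In the cluster 11 of the 17, including the pan-leukocyte gene PTPRC, the T cell receptor complex genes CD3D, CD3E and CD3G and the cytotoxic granule genes NKG7 and PRF1, had 0 UMIs on all 3 days. The summed levels of the other lists, over the genes in the count matrix, in the cluster and in the other CF cells were 2.40 to 3.01 against 6.73 to 15.98 CPM for 9 myeloid genes, 0 to 3.21 against 0.690 to 1.43 for 9 endothelial genes and 0 to 1.61 against 1.73 to 37.4 for 10 fibroblast and stellate cell genes. Of these, 4 myeloid, 5 endothelial and 6 fibroblast genes were at 0, including CSF1R, CDH5 and DCN. For 10 endocrine genes the ranges were 20.4 to 32.1 against 22.9 to 29.2 CPM with INS, GCG and SST at 0, and for 5 acinar enzyme genes 0 to 0.376 against 0.0813 to 0.197 CPM.

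The comparison with the 3 closest clusters of at least 50 cells at day 5 narrowed the genes that were higher in cluster 5. Against cluster 0, 144 of 9209 genes were at least 2-fold higher (1.56%) and 137 lower (1.49%), against cluster 16, 133 of 9125 were higher (1.46%) and 218 lower (2.39%), and against the ductal cluster 26, 529 of 9087 were higher (5.82%) and 281 lower (3.09%). A set of 33 genes was at least 2-fold higher than in each of the 3. It held TAGLN, LTB, MYL9, CALD1, ANKRD1, FST, FADS3 and SFRP1. It also held AGR2 (63.9 CPM against 10.1, 8.22 and 8.32), DKK1, a secreted Wnt antagonist (70.3 against 20.0, 23.9 and 10.4), and KRT18 (446 against 128, 159 and 216). NPPC and GZMA were not in it, since cluster 16 matched or approached them. With cells of all days in the other clusters, clusters 14 (r of 0.976) and 3 (0.974) were as close as cluster 0 (0.974). Clusters 14 and 3 had 45 and 17 cells at day 5 and were not part of this comparison. Over all days cluster 3 had 218 CPM of MYL9 and 351 of FST, against 143 and 339 in cluster 5.

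At day 7 fewer genes were 2-fold higher in the cluster than at day 5, while the number of lower genes was close to that of day 5. Of 9492 genes 41 were at least 2-fold higher in the cluster (0.432%) and 511 were lower (5.38%). Of the 325 genes higher at day 5, 298 were still above the other CF cells at day 7 but only 30 were at least 2-fold higher. Of the 540 lower genes 371 remained at least 2-fold lower and 0 were 2-fold higher. The secretory list kept its median far below that of all genes, at -5.07 with 7 of 8 genes lower, whereas the contractile list had 0 of 16 genes 2-fold higher, 4 lower and a median of 0.31. The YAP/TEAD list had 0 of 11 genes higher and 1 lower at day 7 (median 0.27), the TGF-beta target list 0 of 9 and 2 (median 0.27) and the mesenchymal list 0 of 8 and 2 (median 0.14).

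A set of 5 genes crossed over, at least 2-fold higher in the cluster at day 5 and at least 2-fold lower at day 7. TAGLN went from 143 to 144 CPM in the cluster between days 5 and 7 and from 7.72 to 528 in the other CF cells. CALD1 went from 103 to 171 CPM in the cluster and from 9.83 to 383 outside it, and ANKRD1 from 27.0 to 30.1 and from 3.50 to 200. SPP1 went from 153 to 390 CPM in the cluster and from 22.4 to 1136 outside it. FN1, the fibronectin gene, went from 15.8 to 39.0 CPM and from 4.27 to 432. ANKRD1 and FN1 were under the minimum of 5 CPM in the other CF cells at day 5 and passed it only through the cluster. In the cluster at day 5 the 10 cells richest in each gene held 56.1% of ANKRD1 and 56.5% of FN1 UMIs. For TAGLN, CALD1 and SPP1 they held 32.0%, 18.2% and 34.7%. FN1 was not recomputed without its richest cells. The other CF cells of the 2 days lay largely in different clusters, since the 5 clusters that held 75.6% of them at day 5 held 14.01% at day 7, and a change in level and a change in the makeup of these cells cannot be told apart. At day 9, with 38 cells, fewer than the 50 set as the minimum for a comparison, all 5 were again lower in the cluster, for example TAGLN at 291 against 596 CPM. In that library 176 of 9347 genes were at least 2-fold higher (1.88%) and 756 were lower (8.09%).

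**Figure D5:**
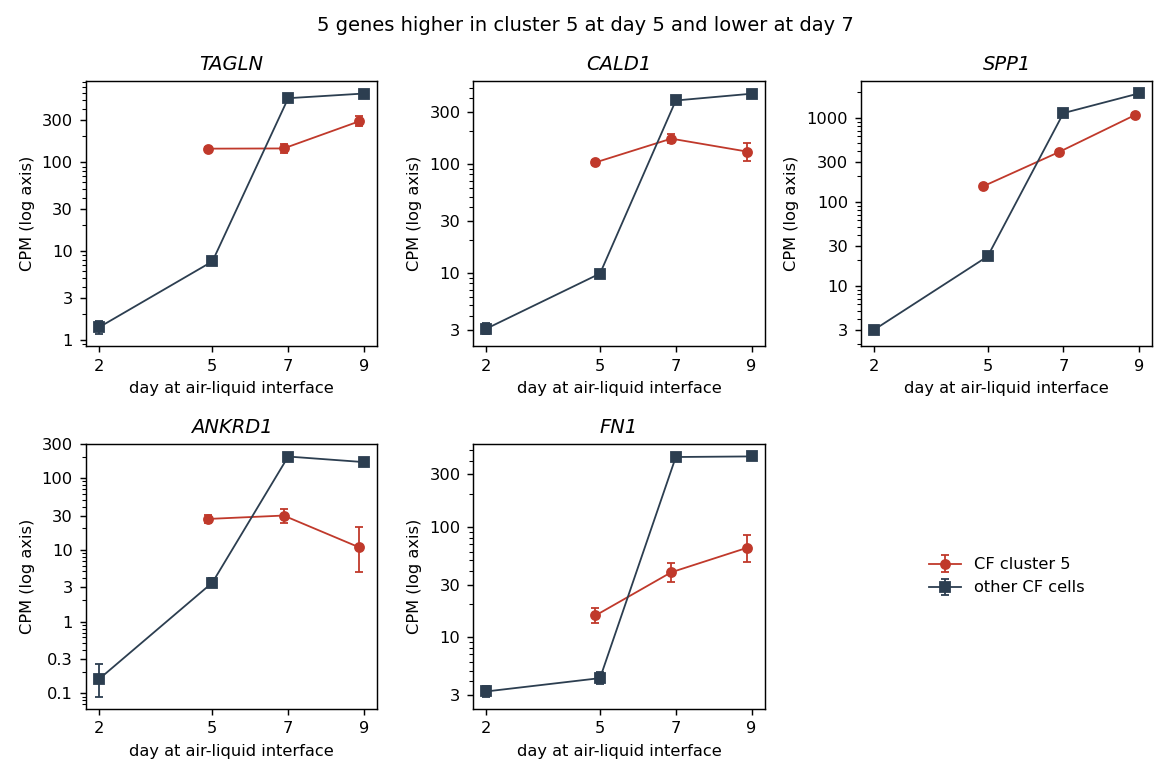
CPM (log axis) of TAGLN, CALD1, SPP1, ANKRD1 and FN1 against the day at the air-liquid interface in CF cluster 5 (red circles) and the other CF cells (dark squares), with exact Poisson 95% intervals and 1 library per day. In the other CF cells TAGLN goes from 7.72 to 528 CPM between days 5 and 7, while in the cluster it is at 143 and 144 CPM. ANKRD1 and FN1 are under 5 CPM in the other CF cells at day 5.

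Within the cluster few genes differed 2-fold between days 5 and 7. Cells of both days were put in the cluster because their expression was alike, which limits this number in advance. Cells that changed more could lie in other clusters, so the number does not measure how stable the cells were. Of 9106 genes 36 were at least 2-fold higher at day 7 (0.395%) and 37 were lower (0.406%), while in the other CF cells 237 of the same genes were higher (2.6%) and 13 were lower (0.143%), over cells whose makeup by cluster differed between the days. STMN1, a microtubule-destabilizing protein gene, was at 4.89 CPM at day 5 and 20.9 at day 7, and the receptor tyrosine kinase gene ROS1 at 7.53 and 27.7, and SPP1, VIM, FN1 and SPARC (401 and 940 CPM) were also among the 10 genes furthest up. Lower at day 7 were the epidermal growth factor receptor ligand genes AREG (259 and 110 CPM) and EREG (111 and 46.6), the plasminogen activator gene PLAU (98.7 and 39.8) and MMP7 (29.6 and 10.4). In the other CF cells AREG, EREG, PLAU and MMP7 were also lower at day 7, with differences of -0.74 to -1.02 on the log2 scale.

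The deposited trajectory scores, which place each CF cell along lineages fitted by the authors, placed the cluster on a few of those lineages. All 436 cells of day 5 had a score on lineage 4, with a median of 27.05 (quartiles 22.7 and 30.3), against 39.5% of the other CF cells with a median of 18.1. Cells of cluster 0 had a median of 18.5 and those of cluster 16 one of 25.4 on the same lineage. Lineage 9 was scored in 63.5% of the cluster's cells and lineage 12 in 61.5%, against 5.49% and 4.06% of the other CF cells. Lineages 1 and 2 were scored in 1.38% of the cluster's cells, against 59.9% and 56.7%. The scores were fitted to the same expression values as the clusters, so they describe the cluster and do not test it.

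Among WT clusters the nearest by the same correlation was WT cluster 8, which the table called ductal (810 cells over all days, r of 0.959). It held 1 cell of day 5, and the centroacinar WT cluster 36 (97 cells) followed at 0.954. Over all WT cells of day 5 NPPC was at 0.741 CPM, TAGLN at 242, CALD1 at 560 and MYL9 at 81.3. These contractile genes, which marked cluster 5 among the CF cells of day 5 but not of the later days, were thus present in WT cells of that day. NPPC over all days was at 8.17 CPM in WT cluster 8 and 6.91 in WT cluster 36, above the median of the other CF clusters, 3.48. Genotype, donors and library cannot be told apart in that comparison.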

How the data were processed

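Single-cell RNA was measured in 8 libraries of 10x Genomics, 4 CF and 4 WT, on days 2, 5, 7 and 9. According to the submitters' processing notes and the study's methods, the authors made the deposited UMI counts with Cell Ranger 5.0.1 and analysed them with Seurat in R 4.1.2, leaving out cells under 200 genes or over 20% mitochondrial reads and removing doublets with DoubletFinder, so no caller was rerun here. The study's methods give the ferret genome ASM1176430v1.1 with an improved transcript annotation. The gene table of that assembly used here names no chromosome or scaffold, so no positions are printed. The authors' deposited cell table gave the cluster, class and mitochondrial percent of each cell. The trajectory scores of the CF lineages were deposited separately. All of these were used as given. The deposited normalized table and cell cycle calls were not used.

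Counts were summed over the cells of a set within 1 library and scaled to CPM. Genes with at least 5 CPM over the CF cells of that library were measured, differences were taken as log2(CPM + 1), and 2-fold was the threshold. A fold on that scale understates the change of low genes. No test was made. A count of 0 was given a ceiling of 3 counts. Cells were thinned to 3000 and 10000 UMIs for shares. The genes named were the 5 markers, the 25 genes highest and the 15 lowest in the cluster at day 5 with at least 20 CPM in either set and no LOC symbol, members of the gene lists, the class markers of the study, CFTR and PDX1, the 5 genes most like each marker over clusters, and, chosen after their values were seen, genes of the crossing set, of the set above the closest clusters and of the change from day 5 to day 7. A few genes that meet these rules are not reported here. Members and lists were chosen with earlier results of these data known. The alternatives were other scaling factors (edgeR 4.0.16 in R 4.3.3), other filters, a pseudocount of 5 CPM, other reference cells, other cell filters, mean per-cell CPM and the other days. Python 3.11.15 with numpy 2.4.6, scipy 1.17.1, pandas 2.3.3 and matplotlib 3.10.9 was used, and the code was tested on simulated data.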

Additional observations from a re-analysis of the deposited data

Results flagged for a closer look

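Differences in opposite directions at days 5 and 7 drew attention to 5 genes, each at least 2-fold higher in the cluster at one day and at least 2-fold lower at the other, on the log2(CPM + 1) scale against the other CF cells of the same library. TAGLN was at 4.04 and -1.87, CALD1 at 3.27 and -1.16 and SPP1 at 2.72 and -1.54 at days 5 and 7. ANKRD1 was at 2.64 and -2.69, and FN1 at 1.67 and -3.44. At day 5 ANKRD1 and FN1 passed the minimum of 5 CPM only through the cluster. With 1 library per day the difference between the days was not tested, and day and library cannot be told apart.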

How the results depend on the processing

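At day 5 the 25 genes furthest up stayed at least 2-fold higher and the 15 furthest down at least 2-fold lower under each alternative of that library in which they were recomputed. They were picked as the extremes of that same library, so this was largely fixed in advance. Several of the 25 reached 20 CPM only in the cluster. ANKRD1, SRGN and CMTM7, at 3.50, 4.47 and 3.47 CPM in the other CF cells, passed the minimum of 5 CPM only through the cluster. The removal of the richest cells was run for the markers and the 25 genes alone (lowest value 1.55). The markers ranged over 10 alternatives from 2.11 to 2.94 (LTB), 1.79 to 2.59 (NPPC), 1.94 to 2.66 (GZMA), 2.29 to 2.91 (FST) and 3.46 to 3.99 (MYL9) on the log2 scale. The removal of the 10 cells richest in a gene and of CF clusters 13, 21, 23 and 27, with a median under 5000 UMIs per cell, was chosen after seeing the data, as was a minimum of 5 CPM in the other CF cells alone. The counts of 325 higher and 540 lower genes became 191 and 298 with a minimum of 20 CPM (5541 genes measured, fewer by construction) and 174 and 311 against the other centroacinar cells. With equal weight for each other cluster 180 were higher, and 41 were at day 7 and 176 at day 9. The share of the cluster at day 5 was 20.2% among cells with at most 10% mitochondrial UMIs, and at day 7 it was 6.27% among those and 7.14% among cells with at least 10000 UMIs. Among values past 2-fold, the sign changed against the centroacinar cells for MKI67 (0.19), UBE2C (0.22), RRM2 (0.72) and the cell cycle median (0.10). At day 7 it changed for TAGLN (-1.87), CALD1 (-1.16), SRGN (-0.27), SPP1 (-1.54), ANKRD1 (-2.69), ADAMTS5 (-0.61), LAMA3 (-0.15), FN1 (-3.44), RRM2 (0.0066) and the cell cycle median (0.0066). At day 9, with 38 cells, it changed for TAGLN (-1.03), MYL9 (-0.083), CALD1 (-1.76), SRGN (-1.33), SPP1 (-0.87), ANKRD1 (-3.83), CDH6 (-0.022), CMTM7 (-0.42), SEMA3E (-0.62), ADAMTS5 (-2.27), TOP2A (0.25), FSTL3 (-0.14), LAMA3 (-0.13), ISG15 (0.49), FN1 (-2.73), ITGB1 (-0.13) and the medians of the cell cycle (0.15), antagonist (-0.14) and mesenchymal (-0.13) lists. Apart from the filter, the cause was not tested. No paired analysis was possible because the result comes from no test: the clusters were made from these genes in these libraries, so a test of cluster 5 against other cells of the same libraries would test the clustering.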

Other observations

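Genes of cholesterol synthesis were counted against each set of CF cells compared at day 5. The list of 20 pathway genes was chosen because several of them stood among the 33 genes above the 3 closest clusters, so its values are a description. Of 17 genes measured, 8 were at least 2-fold higher and 0 were 2-fold lower than in the other CF cells of day 5 (3.53% of all genes were higher), with a median of 0.97 against 0.03 for all genes. Against the other centroacinar cells 13 were 2-fold higher, against 1.89% of all genes, with a median of 1.22. Against clusters 0, 16 and 26 the numbers were 12, 12 and 13, against 1.56%, 1.46% and 5.82% of all genes, with medians of 1.32, 1.30 and 1.11. SQLE, the squalene epoxidase gene, was at 130 CPM in the cluster and 46.0 in the other CF cells. The farnesyl diphosphate synthase gene FDPS was at 251 against 95.6 CPM and HMGCS1, the gene of an early enzyme of the pathway, at 239 against 109. PMVK went the other way, at 75.2 against 81.5 CPM. Among regulators, INSIG1 was at 96.3 against 54.3 CPM, and of 6 fatty acid synthesis genes FADS3 alone was 2-fold higher, with a median of 0.95. Against the other centroacinar cells 3 of these 6 were 2-fold higher, and against clusters 0, 16 and 26 the numbers were 4, 3 and 4. At day 7, 1 of the 17 cholesterol synthesis genes was 2-fold higher, against 0.432% of all genes, with a median of 0.60. At day 9 it was 2, against 1.88% of all genes, with a median of 0.44.

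Cells of the cluster with and without LTB had close levels of NPPC and GZMA at day 5. The 149 cells with a UMI of LTB (median 23748 UMIs) had 40.3 CPM of NPPC and 266 of GZMA, and the 287 without (median 22068 UMIs) had 39.5 and 258 CPM, while MYL9 was at 122 against 151 CPM. FN1 differed more, at 29.7 against 7.84 CPM, and SPARC was at 482 against 354. Cells were also divided by TAGLN. The 119 cells with a UMI of it (median 24187 UMIs) had 193 CPM of CALD1, 206 of MYL9 and 614 of SPARC, against 67.4, 115 and 316 CPM in the 317 cells without (median 22327 UMIs), whereas KRT5 was at 1397 against 1373 CPM and NPPC at 27.1 against 44.9. FN1 was at 35.3 against 8.03 CPM and LTB at 128 against 92.8. In a division by NPPC, the 193 cells with a UMI of it (median 23748 UMIs) had 22.3 CPM of FN1 and 474 of SPARC. The 243 cells without (median 21587 UMIs) had 10.1 and 336 CPM. FN1 and SPARC were thus higher in the cells with the gene in each of these divisions. GZMA, KRT5, SFRP1, PTHLH and CD69 were so too. GZMA was at 304 against 243 CPM in the division by TAGLN and at 286 against 239 in that by NPPC. FN1 had 168 UMIs in the cluster at day 5, and 10 cells held 56.5% of them. These divisions reuse the same 436 cells, so they are not independent and can rest on the same few cells. No test was made of them.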
